A study of Mus musculus with 12 samples.

Results

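The genes described are the eukaryotic translation initiation factors of mouse naive CD4 T cells. They are the 54 probe sets, for 45 genes, with 1 platform symbol that begins with Eif and a number from 1 to 6, among 28853 probe sets on the array. The 4 probe sets of the Eif2ak kinases, which phosphorylate eIF2, were left out by the rule, as were 10 with an Eif symbol among several symbols. All 54 were found in a RefSeq gene table by Entrez number, and 7 genes had more than 1 probe set. The probe set of Eif4a3l1 read below the lower quartile (5.81) on all 12 arrays, which that of no other member did.

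The mice were C57BL/6 and of 2 genotypes, WT and transgenic for PP2Ac. PP2Ac is the catalytic part of a major serine/threonine phosphatase, and Ppp2ca is its gene. Their naive CD4 T cells were taken unstimulated (0 h) or after 6 h or 24 h with antibodies to CD3 (0.25 ug/mL) and CD28 (0.5 ug/mL). The antibodies were in solution over plates coated with goat antibody to hamster immunoglobulin, in RPMI with serum. The 6 groups had 2 one-colour arrays each, 12 in all. In every pair, the title of 1 array carries the word Rep, and these arrays are called marked and the others unmarked. The labels name the controls WT transgenic, whereas the design text calls them wild type. The promoter of the transgene, the age and sex of the mice, and whether the arrays of a pair came from separate animals are not stated in the labels. The p-values therefore measure the spread between these samples, which may be technical. In bulk RNA, fewer cells of a type and less RNA per cell cannot be told apart.

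Translation begins when eIF2 brings the initiator tRNA to the small ribosomal subunit, helped by eIF1, eIF1A, eIF3 and eIF5, while eIF2B reloads eIF2 with GTP. The cap-binding protein eIF4E, the scaffold eIF4G and the helicase eIF4A recruit the mRNA, and the 4E-binding proteins block eIF4E from eIF4G until mTOR phosphorylates them. A resting T cell makes little protein, and stimulation through CD3 and CD28 raises its translation as it grows.

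On the arrays, Ppp2ca read higher in transgenic than in WT cells by 0.74 ± 0.08 (log2 difference ± SE) at 0 h (limma adjusted p = 0.055, n = 2 arrays per group), by 0.38 ± 0.08 at 6 h (adjusted p = 1) and by 0.60 ± 0.08 at 24 h (adjusted p = 0.28). Averaged over the times it was higher by 0.57 ± 0.05 (limma adjusted p = 0.0044, n = 6 arrays per genotype). All 7 measured T cell markers lay above the upper quartile (10.16) on every array, and the mean of the 8 activation markers went from 10.56 to 11.13 at 0 h to 12.56 to 12.77 at 6 h. The 3 WT arrays marked Rep stood apart: the mean of 7 neutrophil markers was 8.10 to 9.06 on them and 10.42 to 12.37 on the other 9, and that of 5 monocyte or macrophage markers was 8.14 to 8.49 against 9.86 to 10.57. Values without those arrays are given with the WT counts of members that they change, and the part of these cells in the results was not tested.

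The promoters of 4 genes that rose are shown first, with that of Eif3f, a subunit gene that read lower. These genes were picked by hand, and Eif1a and Eif2b3, which had the largest rises at 6 h, are not among them. Each promoter is the stretch of 250 bases before a RefSeq transcription start (GRCm38.p6), in the direction of the gene. Capitals mark CACGTG, the E-box that MYC and MAX bind, which reads the same on both strands. MYC is a transcription factor known for its induction in activated T cells. The Eif4e stretch, chr3:138527018-138527267 on the plus strand, is 1 of 2 listed for the gene and holds 2 copies, whereas the other holds none. Those of Eif4a1, chr11:69672424-69672673, and Eif5a, chr11:69921387-69921636, lie on the minus strand. The Eif5a stretch is 1 of 6 listed for the gene, of which 3 hold a copy and 3 hold none. Those of Eif3b, chr5:140419055-140419304, which holds no copy, and Eif3f, chr7:108934165-108934414, lie on the plus strand.

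Eif4e: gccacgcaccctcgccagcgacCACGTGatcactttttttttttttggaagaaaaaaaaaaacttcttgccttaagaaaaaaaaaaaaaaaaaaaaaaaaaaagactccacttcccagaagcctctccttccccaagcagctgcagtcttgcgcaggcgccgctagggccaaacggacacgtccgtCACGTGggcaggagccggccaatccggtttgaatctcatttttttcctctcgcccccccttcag
Eif4a1: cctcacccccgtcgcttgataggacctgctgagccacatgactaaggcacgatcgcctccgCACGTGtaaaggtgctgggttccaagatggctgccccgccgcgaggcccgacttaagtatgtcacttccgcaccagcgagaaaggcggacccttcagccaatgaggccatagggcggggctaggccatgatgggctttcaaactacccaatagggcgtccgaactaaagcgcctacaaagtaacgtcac
Eif5a: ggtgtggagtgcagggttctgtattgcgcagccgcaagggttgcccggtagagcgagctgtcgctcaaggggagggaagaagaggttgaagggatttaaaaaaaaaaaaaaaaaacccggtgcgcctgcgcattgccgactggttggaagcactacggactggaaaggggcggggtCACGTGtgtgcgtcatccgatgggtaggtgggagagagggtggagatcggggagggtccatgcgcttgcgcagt
Eif3b: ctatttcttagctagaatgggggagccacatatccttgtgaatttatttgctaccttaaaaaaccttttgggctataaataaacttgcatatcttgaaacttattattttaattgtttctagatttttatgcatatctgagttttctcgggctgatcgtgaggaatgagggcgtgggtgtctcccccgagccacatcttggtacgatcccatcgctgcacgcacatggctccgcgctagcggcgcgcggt
Eif3f: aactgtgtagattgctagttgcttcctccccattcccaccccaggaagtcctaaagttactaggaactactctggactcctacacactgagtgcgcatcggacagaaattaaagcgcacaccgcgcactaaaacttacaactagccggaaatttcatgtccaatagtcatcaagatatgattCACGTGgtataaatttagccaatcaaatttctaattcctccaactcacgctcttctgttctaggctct

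Promoter stretches were listed for 35 of the 45 genes. An E-box was present in those of 8 genes (22.9%), Eif1b, Eif3f, Eif3k, Eif4a1, Eif4e, Eif4h, Eif5a and Eif5a2, against 7.61% of 17491 protein-coding genes with a listed stretch. Among the 22 listed genes that rose at 6 h in both genotypes, 5 held it. The letters CCGGAAGT, which ETS factors bind, were present on either strand in 5 of the 35 genes (14.3%, against 4.26% of protein-coding genes). The NRF1 motif was present in 1 gene, Eif3k. The E-box was thus present both in genes that rose, such as Eif4e, Eif4a1 and Eif5a, and in Eif3f, which fell, and absent from the stretch of Eif3b, which rose. A match is a description of the letters and not of a site in use.

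Most of the initiation factors read higher after 6 h of stimulation. No cells were cultured without the antibodies, so stimulation and time in culture cannot be told apart. At 6 h, 33 of the 54 probe sets rose in WT cells and 3 fell, with a median difference of 0.53 on the log2 scale, against -0.01 over all probe sets tested (limma adjusted p under 0.05, n = 2 arrays per group). Over all 23410 probe sets, 12.6% rose and 13.9% fell in the same comparison. In transgenic cells 32 rose and 3 fell (median 0.58), where 12.5% of all probe sets rose and 12.9% fell. The same 31 probe sets rose in both genotypes, 93.9% of the WT calls and 96.9% of the transgenic ones, and the 3 that fell were Eif3f, Eif4e3 and Eif4ebp2 in both. Leaving out the 3 WT arrays marked Rep left 26 higher and 1 lower in WT cells, and leaving out the unmarked 0 h transgenic array left 1 lower in transgenic cells.

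Markers of other cells moved with time as well. The mean of the 5 measured B cell markers was 10.66 to 10.97 at 0 h, 9.63 to 10.29 at 6 h and 10.52 to 11.15 at 24 h, and 1 of the 5 lay above the upper quartile on all arrays. The neutrophil mean went down with time in each series: from 12.37 to 11.77 and 11.49 on the unmarked and from 9.06 to 8.78 and 8.10 on the marked WT arrays, and from 12.15 to 11.44 and 10.65 and from 11.47 to 10.90 and 10.42 on the transgenic ones. The mean of 3 erythroid markers was 6.82 to 8.28 at 0 h and 6.50 to 6.58 at 24 h. None of the B cell, neutrophil or erythroid markers lay below the lower quartile on all arrays. The part of these cells in the responses was not tested.

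At 24 h fewer of the factors were called. In WT cells 29 of the 54 rose and 0 fell (median 0.41, where 12.9% of all probe sets rose and 13.8% fell). At an unadjusted p under 0.05, 35 differed in either direction, as did 36.2% of all probe sets. In transgenic cells 29 rose and 1, Eif5, fell (median 0.38, where 12% of all probe sets rose and 11.8% fell). Of the 31 that rose at 6 h in both genotypes, 26 were also called higher at 24 h in both. By mark, the median over the 54 in WT cells went from 0.61 at 6 h to 0.41 at 24 h on the unmarked arrays and from 0.43 to 0.47 on the marked ones, so the marked WT arrays showed no smaller median at 24 h. In transgenic cells it went from 0.61 to 0.42 and from 0.54 to 0.38. From 6 h to 24 h directly, 8 fell and 3 rose in WT cells (5.86% and 7.49% of all probe sets), and 12 fell and 1 rose in transgenic cells (6.42% and 7.89%). These counts rested on single arrays. In WT cells the 8 lower became 3 without either 6 h array and 2 without the unmarked 24 h array, 0 with the compared groups alone, and 3 without the WT arrays marked Rep. The 3 higher became 1 without the marked 6 h array or either 24 h array, 0 with the compared groups alone, and 1 without the WT arrays marked Rep. The WT median went from -0.14 to -0.02 without the unmarked 24 h array. In transgenic cells the 12 lower became 4 without the marked 6 h array, 5 without any 1 of the other 6 h and 24 h arrays, and 7 with the compared groups alone, and the 1 higher became 2 without either WT 6 h array. Against 0 h, 18 were higher at 24 h in WT cells without the WT arrays marked Rep. In transgenic cells 18 were higher without the unmarked 0 h array and 19 without the unmarked 24 h array. The 6 h and 24 h comparisons share the 0 h arrays.

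**Figure D1:**
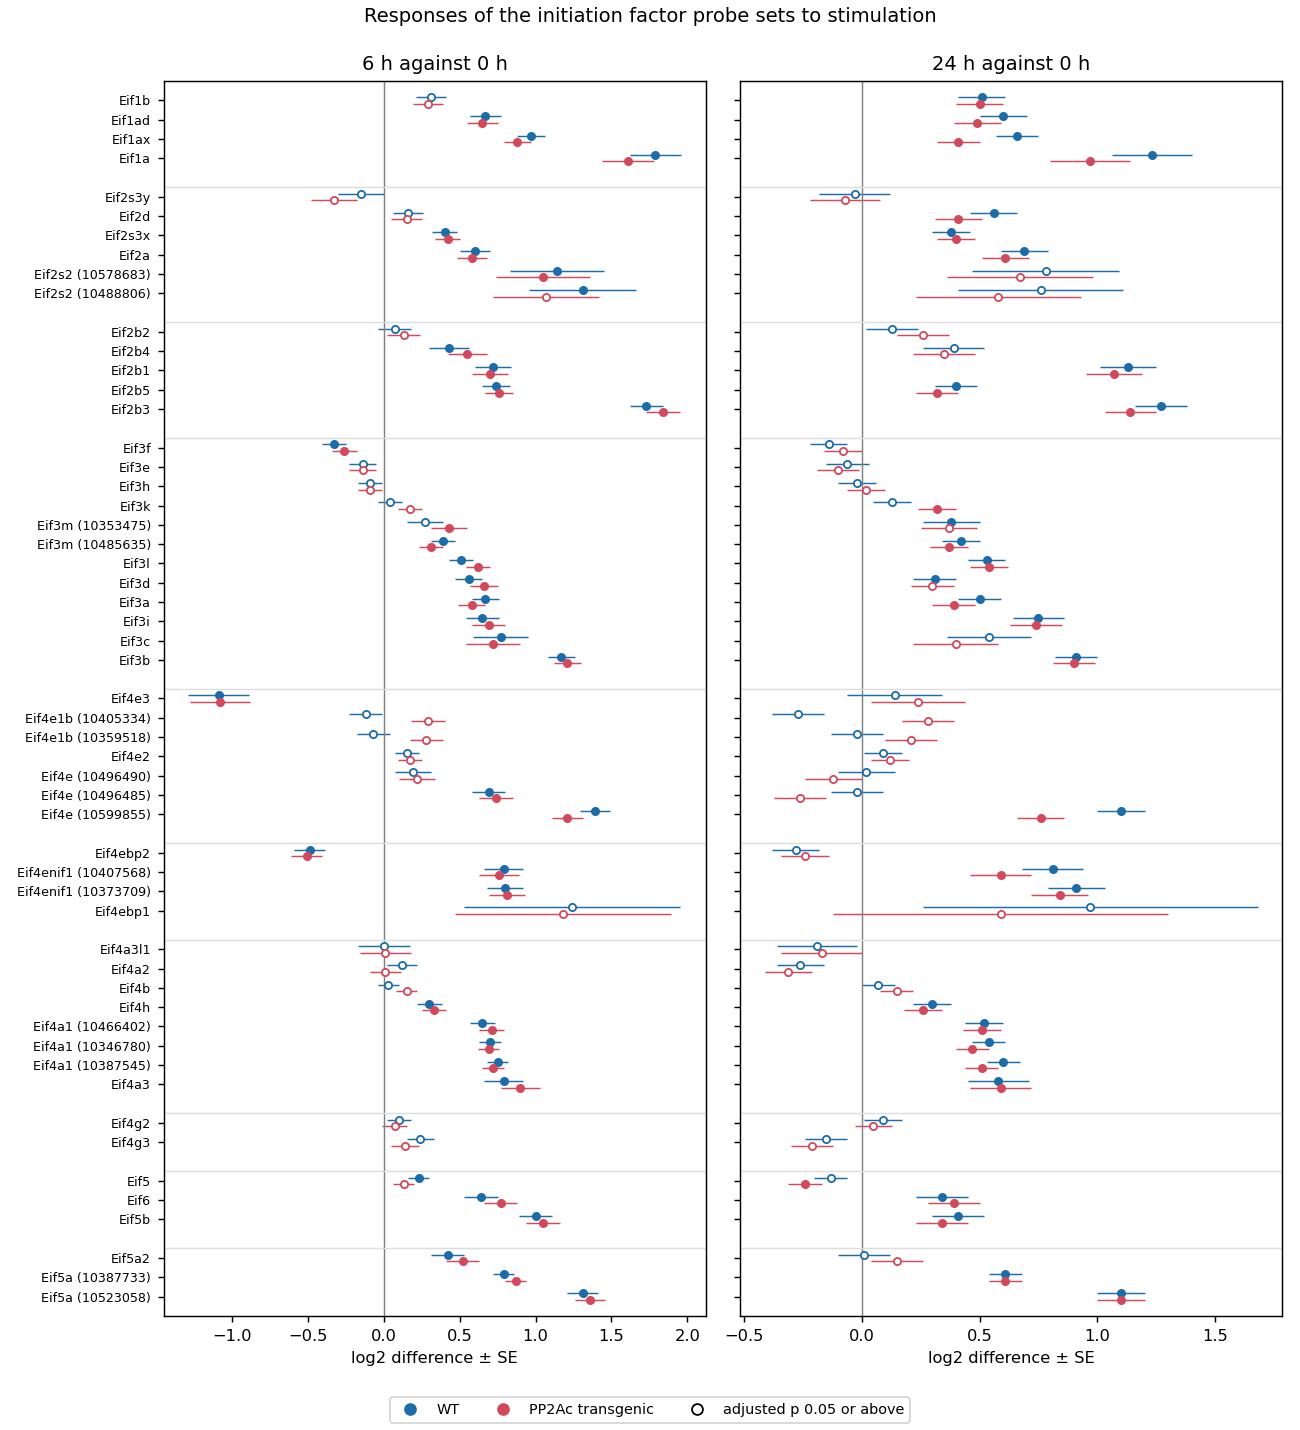
Log2 differences (± SE) of the 54 initiation factor probe sets at 6 h and 24 h against 0 h in WT and PP2Ac transgenic cells, 2 arrays per group, ordered by class; open points had a limma adjusted p of 0.05 or above. Most points lie to the right of 0 and those of the 2 genotypes lie close together, while Eif4e3 and Eif4ebp2 lie to the left at 6 h.

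eIF1 and eIF1A scan the mRNA for the start codon with the small subunit. Eif1a, an eIF1A gene, read 9.02 and 9.29 (unmarked, then marked array) at 0 h in WT cells, 10.84 and 11.04 at 6 h, and 10.18 and 10.59 at 24 h. The transgenic arrays read 9.12 and 9.42, then 10.77 and 10.98, then 10.22 and 10.26. Every stimulated array lay above every unstimulated one. The differences at 6 h were 1.79 ± 0.17 in WT (3.46-fold, limma adjusted p = 7.9e-05, n = 2 arrays per group) and 1.61 ± 0.17 in transgenic cells (adjusted p = 0.00014), and at 24 h 1.23 and 0.97. Its X-linked relative Eif1ax rose by 0.97 ± 0.09 and 0.88 ± 0.09 at 6 h, and Eif1ad by 0.67 ± 0.10 and 0.65 ± 0.10. Eif1b was called at 24 h in both genotypes (0.51 and 0.50) but not at 6 h (0.31 and 0.29).

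The eIF2 complex carries the initiator tRNA. Its β subunit gene Eif2s2 read higher after stimulation on both of its probe sets, but its paired arrays differed widely. Probe set 10578683 read 10.72 and 10.98 at 0 h in WT cells, 11.70 and 12.28 at 6 h, and 11.26 and 12.01 at 24 h. In transgenic cells the readings were 10.89 and 10.96, then 11.59 and 12.36, then 11.41 and 11.78. The marked array was the higher of each pair, at 0 h as well as after stimulation. At 6 h the difference was 1.14 ± 0.31 in WT (limma adjusted p = 0.025) and 1.05 ± 0.31 in transgenic cells (adjusted p = 0.037, n = 2 arrays per group). Those calls were lost in each genotype without either 0 h array or without the marked 6 h array, with values of 0.85 to 1.26 in WT and 0.66 to 1.09 in transgenic cells and adjusted p of 0.062 to 0.24. The WT value with all 3 marked WT arrays left out was 0.97 (adjusted p = 0.11). The second probe set, 10488806, differed by 1.31 ± 0.35 in WT (adjusted p = 0.021) and by 1.07 ± 0.35 in transgenic cells (adjusted p = 0.053). Neither probe set was called at 24 h. Eif2a, which can deliver initiator tRNA without GTP, rose by 0.60 and 0.58 at 6 h. Eif2d, a factor of alternative initiation and recycling, rose by 0.56 and 0.41 at 24 h, with 0.16 and 0.15 at 6 h (not called).

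The γ subunit of eIF2 is encoded by an X-linked and a Y-linked gene. The X-linked Eif2s3x read 12.87 and 12.93 at 0 h in WT cells, 13.27 and 13.32 at 6 h, and 13.32 and 13.23 at 24 h. In the transgenic samples it read 12.75 and 12.87, then 13.21 and 13.26, then 13.16 and 13.25. It rose by 0.40 ± 0.08 in WT and 0.42 ± 0.08 in transgenic cells at 6 h (limma adjusted p = 0.0052 and 0.0037, with n = 2 arrays in each group), and by 0.38 and 0.40 at 24 h. Without the unmarked 0 h array the transgenic 24 h value was 0.34 (adjusted p = 0.052), and with all 3 marked WT arrays left out the WT values were 0.40 at 6 h (adjusted p = 0.091) and 0.45 at 24 h (adjusted p = 0.074). Eif2s3y read 10.47 and 10.27 at 0 h in WT cells, 10.44 and 9.98 at 6 h, and 10.28 and 10.39 at 24 h, and in transgenic cells 10.46 and 10.39, 10.13 and 10.06, and 10.48 and 10.23. Its differences were -0.15 ± 0.15 and -0.33 ± 0.15 at 6 h and -0.03 and -0.07 at 24 h, none of them called (adjusted p from 0.16 to 0.91). The values of the pair were not tested against each other. Xist, the RNA that silences 1 X chromosome in female cells, read 10.55 to 12.23 over the 12 arrays, and the Y-linked Kdm5d read 9.41 to 9.96. Both thus lay above the array median (7.45) on every array, and no detection limit was set. Uty, the other measured gene of the sex-linked list, was called lower at 6 h (-0.52 in WT and -0.62 in transgenic cells). Those calls were lost in some fits with 1 array fewer.

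eIF2B is the exchange factor that returns eIF2 to its active, GTP-bound form. Its γ subunit gene Eif2b3 was the member with the largest rise at 6 h in transgenic cells. It read 9.75 and 9.87 at 0 h in WT cells, 11.57 and 11.50 at 6 h, and 10.90 and 11.25 at 24 h. In PP2Ac cells it read 9.67 and 9.71, then 11.51 and 11.56, then 10.80 and 10.87. All 0 h arrays lay below all others and the 6 h arrays above the 24 h ones. The difference at 6 h was 1.73 ± 0.11 in WT (3.31-fold, limma adjusted p = 2.1e-05) and 1.84 ± 0.11 in transgenic cells (3.58-fold, adjusted p = 1.8e-05, n = 2 arrays per group), and at 24 h 1.27 ± 0.11 and 1.14 ± 0.11. Among the other subunits, Eif2b1 (α) rose by 0.72 and 0.70 at 6 h and by 1.13 and 1.07 at 24 h, Eif2b5 (ε, the catalytic subunit) by 0.74 and 0.76 at 6 h, and Eif2b4 (δ) by 0.43 and 0.55 at 6 h. Eif2b2 (β) was called in neither genotype at either time (0.07 to 0.26).

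eIF3 is the large scaffold that binds the small subunit, and its subunit genes did not move as 1 group. At 6 h, Eif3a, Eif3b, Eif3c, Eif3d, Eif3i, Eif3l and Eif3m rose in both genotypes on at least 1 probe set, Eif3f fell, and Eif3e, Eif3h and Eif3k were not called. Eif3b read 12.09 and 12.01 at 0 h in WT cells, 13.28 and 13.15 at 6 h, and 12.94 and 12.99 at 24 h. In the transgenic samples it read 12.07 and 11.89, then 13.21 and 13.17, then 12.96 and 12.80. Its groups at 0 h and after stimulation did not overlap, and it rose by 1.17 ± 0.09 and 1.21 ± 0.09 at 6 h (limma adjusted p = 4.4e-05 and 4.3e-05, with n = 2 arrays in each group) and by 0.91 and 0.90 at 24 h. The other risers ranged at 6 h from 0.31 for Eif3m (transgenic) to 0.77 for Eif3c (WT).

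Eif3f read 13.83 and 13.93 at 0 h in WT cells, 13.55 and 13.55 at 6 h, and 13.77 and 13.71 at 24 h. In PP2Ac cells it read 13.79 and 13.86, then 13.61 and 13.52, then 13.75 and 13.74. The 6 h arrays were the lowest of each genotype. It fell at 6 h by 0.33 on the log2 scale in WT cells (SE 0.08, limma adjusted p = 0.011) and by 0.26 in transgenic cells (SE 0.08, adjusted p = 0.032, n = 2 arrays per group), and was not called at 24 h (-0.14 and -0.08). These calls were near the threshold: the WT call was lost without the unmarked 6 h array (-0.33, adjusted p = 0.052) or the marked 0 h array (-0.28, adjusted p = 0.081), and with all 3 marked WT arrays left out (-0.28, adjusted p = 0.21). The transgenic call was lost without any 1 of its 0 h and 6 h arrays (-0.31 to -0.21, adjusted p = 0.053 to 0.17) and under median centring (-0.23, adjusted p = 0.10). Eif3e differed by -0.14 ± 0.09 in each genotype at 6 h and Eif3h by -0.09 ± 0.08. Eif3k differed by 0.04 and 0.17 at 6 h, and at 24 h by 0.13 in WT (adjusted p = 0.30) and 0.32 in transgenic cells (adjusted p = 0.021). The difference between genotypes in the 24 h response was not called for any of the 54.

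**Figure D2:**
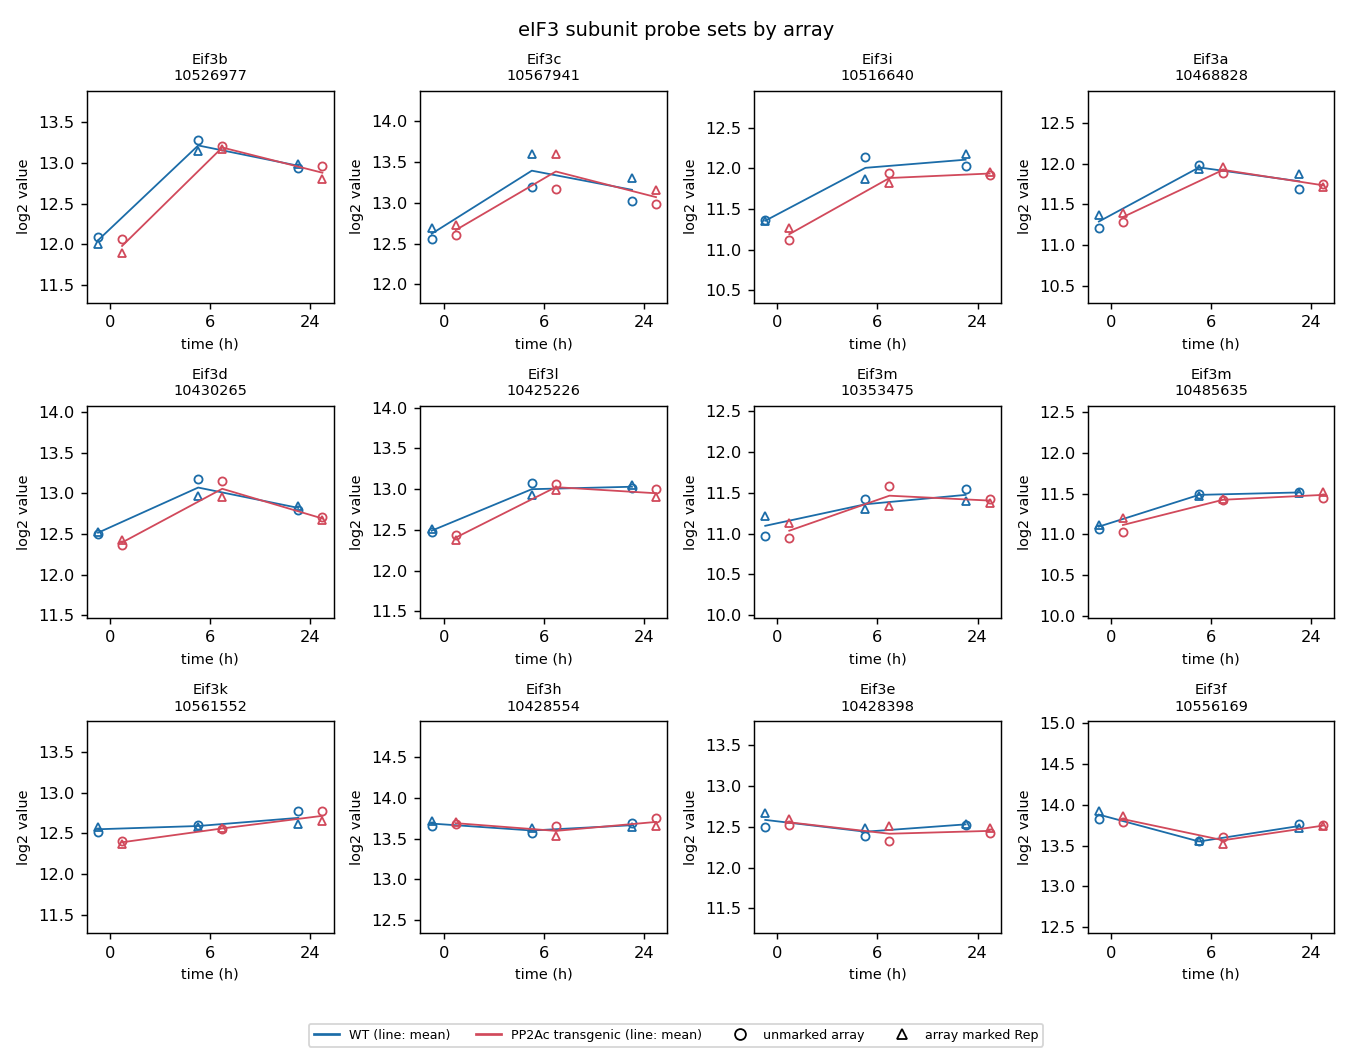
Log2 values of the 12 eIF3 subunit probe sets on every array at 0, 6 and 24 h, ordered by mean response at 6 h; circles are unmarked arrays, triangles those marked Rep, lines join the means of WT and PP2Ac transgenic arrays, and each panel has its own axis. The values climb at 6 h in the panels from Eif3b to Eif3m, stay level for Eif3k, Eif3h and Eif3e, and dip for Eif3f.

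The cap-binding proteins went in opposite directions at 6 h. Eif4e, the main cap-binding protein, had 3 probe sets. Probe set 10599855 read 9.99 and 9.99 at 0 h in WT cells, 11.38 and 11.39 at 6 h, and 10.96 and 11.22 at 24 h. The transgenic arrays read 10.18 and 10.11, then 11.36 and 11.35, then 10.98 and 10.83. It rose by 1.39 ± 0.10 and 1.21 ± 0.10 at 6 h (limma adjusted p = 2.7e-05 and 4.7e-05, with n = 2 arrays in each group) and by 1.10 and 0.76 at 24 h. Probe set 10496485 read 9.33 and 9.46 at 0 h in WT cells, 10.15 and 10.03 at 6 h, and 9.24 and 9.51 at 24 h, and in transgenic cells 9.40 and 9.55, 10.20 and 10.22, and 9.22 and 9.22. It rose by 0.69 ± 0.11 and 0.74 ± 0.11 at 6 h (adjusted p = 0.0011 and 0.00084) and differed by -0.02 and -0.26 at 24 h, falling from 6 h to 24 h by 0.71 in WT and by 1.0 in transgenic cells (adjusted p = 0.0036 and 0.00084). The third, 10496490, was not called (0.19 and 0.22 at 6 h). The 3 probe sets thus disagreed on the level of Eif4e at 24 h.

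Eif4e3, a relative of eIF4E that also binds the cap, fell at 6 h and came back. It read 9.90 and 9.88 at 0 h in WT cells, 8.72 and 8.88 at 6 h, and 9.69 and 10.37 at 24 h. In PP2Ac cells it read 9.96 and 9.96, then 8.83 and 8.92, then 10.01 and 10.39. All 4 arrays at 6 h lay below all others. The fall at 6 h was -1.09 ± 0.20 in WT and -1.08 ± 0.20 in transgenic cells (limma adjusted p = 0.0032 and 0.0034, with n = 2 arrays in each group), a 2.13-fold and a 2.12-fold lower reading, and it rose from 6 h to 24 h by 1.23 and 1.32 (adjusted p = 0.0051 and 0.0035). It was named after its values had been seen. Eif4e2, which represses translation from the cap, was not called (0.15 and 0.17 at 6 h), nor were the 2 probe sets of Eif4e1b, a germ cell relative.

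The 4E-binding proteins hold eIF4E away from eIF4G. Eif4ebp2 read 12.87 and 12.79 at 0 h in WT cells, 12.38 and 12.29 at 6 h, and 12.59 and 12.51 at 24 h. The transgenic arrays read 12.87 and 12.67, then 12.38 and 12.14, then 12.54 and 12.53. It fell by 0.49 and 0.51 at 6 h (SE 0.10, limma adjusted p = 0.0068 and 0.0055, with n = 2 arrays in each group) and was not called at 24 h. Without the unmarked 0 h array the transgenic value was -0.41 (adjusted p = 0.051), and with all 3 marked WT arrays left out the WT value was -0.48 (adjusted p = 0.10). Eif4enif1, which carries eIF4E into the nucleus, rose instead: probe set 10373709 read 10.83 and 10.88 at 0 h in WT cells, 11.69 and 11.63 at 6 h, and 11.58 and 11.96 at 24 h, and in transgenic cells 10.87 and 10.84, 11.73 and 11.61, and 11.67 and 11.72. Its rise was 0.80 and 0.81 at 6 h and 0.91 and 0.84 at 24 h, and its second probe set gave 0.79 and 0.76 at 6 h.

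Eif4ebp1, the best known 4E-binding protein, read high on the stimulated arrays marked Rep. It read 10.45 and 10.28 at 0 h in WT cells, 10.82 and 12.38 at 6 h, and 10.53 and 12.13 at 24 h. In the transgenic samples it read 10.37 and 10.44, then 10.85 and 12.32, then 10.31 and 11.68. The 4 stimulated arrays marked Rep read 11.68 to 12.38, and the other 8 arrays 10.28 to 10.85. The pooled differences of 1.24 ± 0.71 and 1.18 ± 0.71 at 6 h were not called (limma adjusted p = 0.27 and 0.30, with n = 2 arrays in each group). In a comparison added after these values had been seen, the response at 6 h was larger in the marked arrays by 1.56 ± 0.18 (limma adjusted p = 0.036). At 24 h it was larger by 1.54 ± 0.18 (adjusted p = 0.019). Each time and mark had n = 2 arrays, 1 WT and 1 transgenic. It was the only member called there, where 0.0897% of all probe sets were called at 6 h and 0.543% at 24 h. The calls were lost on leaving out 10 of the 12 arrays singly at 6 h and 5 of the 12 at 24 h, with values of 1.40 to 1.71 at 6 h and 1.38 to 1.61 at 24 h. The mark Rep is not explained in the labels. The mean of the 2 CD8 T cell markers was lower on the marked array in all 6 pairs, at 9.78 and 9.05 (unmarked, marked) in WT and 10.23 and 9.21 in transgenic cells at 6 h, and 10.27 and 9.88 in WT and 11.02 and 10.18 in transgenic cells at 24 h. The neutrophil mean was also lower on the marked array of every pair. The mean of the 8 activation markers was lower on the marked array at 0 h, at 10.93 and 10.56 in WT and 11.13 and 10.95 in transgenic cells. It was higher on the marked array of every stimulated pair. These means were 12.61 and 12.71 in WT and 12.56 and 12.77 in transgenic cells at 6 h. At 24 h they were 12.25 and 12.60 in WT and 12.28 and 12.47 in transgenic cells. The part of these cells, or of activation, in the result was not tested.

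**Figure D3:**
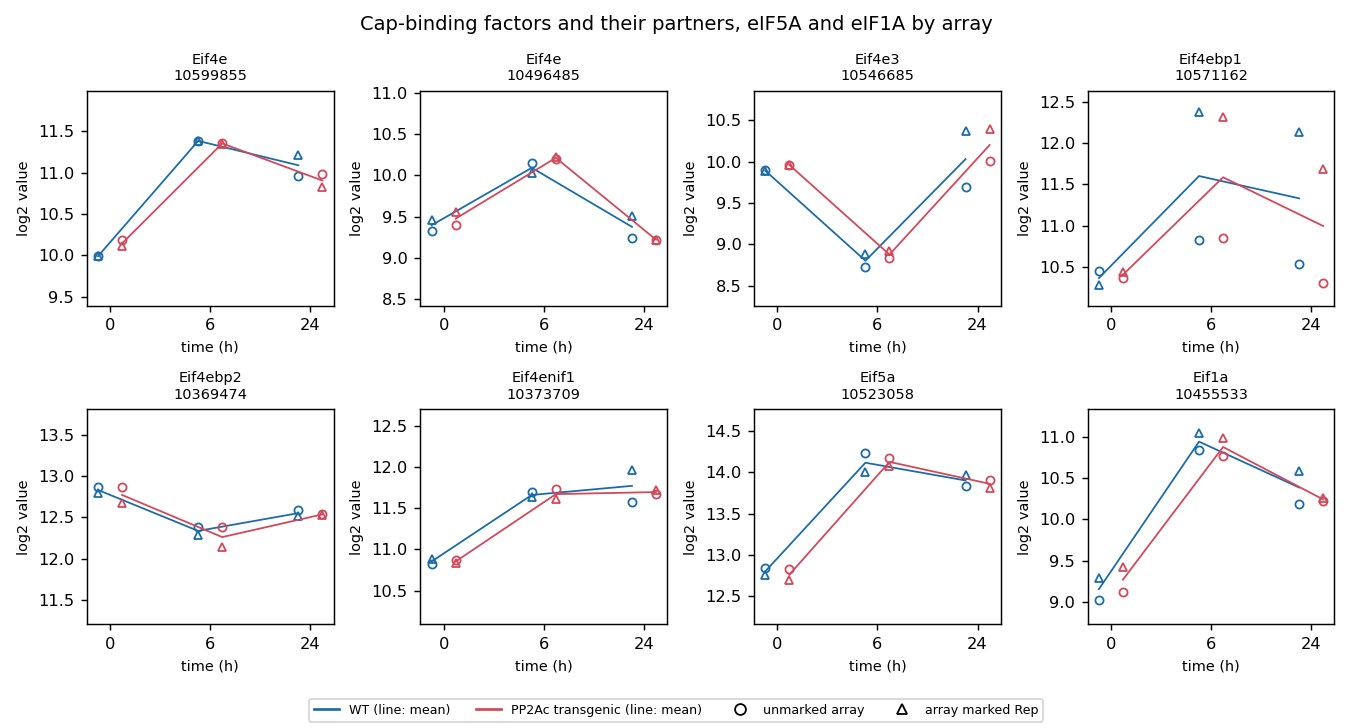
Log2 values on every array of 2 Eif4e probe sets, Eif4e3, Eif4ebp1, Eif4ebp2, Eif4enif1, Eif5a and Eif1a at 0, 6 and 24 h; circles are unmarked arrays, triangles those marked Rep, and lines join the means of WT and PP2Ac transgenic arrays. Eif4e climbs and Eif4e3 dips at 6 h, and the stimulated Eif4ebp1 arrays marked Rep (11.68 to 12.38) lie above the unmarked ones.

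**Figure D4:**
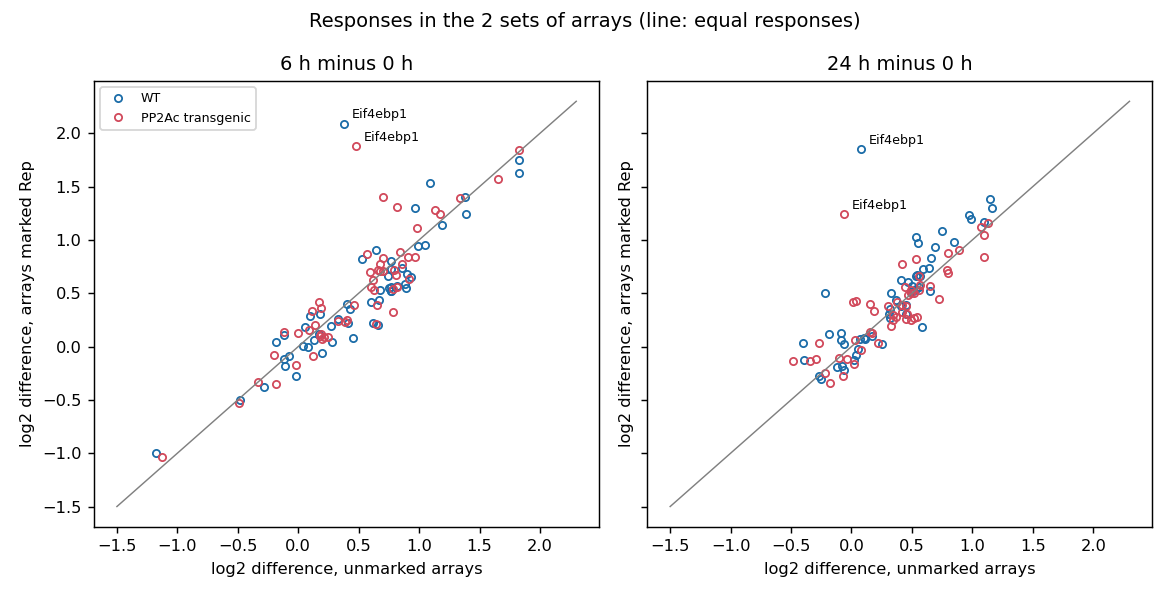
Response of each of the 54 probe sets in the unmarked arrays (x axis) and in the arrays marked Rep (y axis) at 6 h and 24 h, as log2 differences from 0 h; each point is 1 array minus 1 array. Most points lie near the line of equal response and Eif4ebp1 lies above it in both genotypes.

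eIF4A unwinds the leader of the mRNA with the help of eIF4B and eIF4H. The 3 probe sets of the helicase gene Eif4a1 rose alike, by 0.65 to 0.75 in WT and 0.69 to 0.72 in transgenic cells at 6 h, and by 0.47 to 0.60 at 24 h. Eif4a3, the helicase of the exon junction complex, read 10.23 and 10.59 at 0 h in WT cells, 11.15 and 11.24 at 6 h, and 10.88 and 11.10 at 24 h, and in transgenic cells 10.26 and 10.45, 11.22 and 11.29, and 10.98 and 10.90. It rose by 0.79 ± 0.13 and 0.90 ± 0.13 at 6 h (limma adjusted p = 0.0018 and 0.00086, with n = 2 arrays in each group). Eif4a2, the second eIF4A helicase, did not rise: it read 12.21 and 12.12 at 0 h in WT cells, 12.27 and 12.30 at 6 h, and 11.82 and 11.99 at 24 h, and in transgenic cells 12.27 and 12.11, 12.14 and 12.25, and 11.79 and 11.98. Its differences at 24 h were -0.26 ± 0.10 and -0.31 ± 0.10, neither of them called (adjusted p = 0.091 and 0.057). From 6 h to 24 h it fell by 0.38 in WT cells (limma adjusted p = 0.039), a call lost on leaving out any 1 of 7 arrays (-0.40 to -0.29), and differed by -0.31 in transgenic cells (adjusted p = 0.073). Eif4h rose by 0.30 and 0.33 at 6 h, and Eif4b was not called (0.03 and 0.15).

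The scaffold genes measured by a probe set of their own were Eif4g2 and Eif4g3. Eif4g2, which serves initiation that does not need eIF4E, read between 12.93 and 13.17 on all 12 arrays, with differences of 0.10 and 0.07 at 6 h and 0.09 and 0.05 at 24 h (SE 0.08, not called). Eif4g3 read 11.71 and 11.75 at 0 h in WT cells, 11.89 and 12.06 at 6 h, and 11.60 and 11.56 at 24 h, and in transgenic cells 11.74 and 11.76, 11.92 and 11.86, and 11.44 and 11.63. Its differences from 0 h were 0.24 and 0.14 at 6 h and -0.15 and -0.21 at 24 h, none called. From 6 h to 24 h it fell by 0.40 in WT (limma adjusted p = 0.019) and by 0.35 in transgenic cells (adjusted p = 0.031). Those calls were lost on leaving out any 1 of 3 arrays in WT (-0.42 to -0.32), any 1 of 5 in transgenic cells (-0.38 to -0.26), or the 3 marked WT arrays (-0.30 and -0.35). None of the 10 left-out probe sets with several symbols names an eIF4G gene. Of these, 8 were called higher at 6 h and at 24 h in each genotype. At 6 h 12.6% of all probe sets rose in WT and 12.5% in transgenic cells, and at 24 h 12.9% and 12%. The 8 share few symbols: Eif1a with others, Eif3j1 with Eif3j2, and Eif4a3 with Eif4a3l1. The probe sets of Snora28 with Eif5 and Ankhd1 with Eif4ebp3 were called lower at 24 h (-0.63 and -0.61 in WT, -0.78 and -0.59 in transgenic cells).

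Late steps are served by eIF5, which triggers GTP hydrolysis on eIF2, eIF5B, which joins the subunits, and eIF6, which keeps the large subunit free. Eif5b read 9.66 and 9.80 at 0 h in WT cells, 10.71 and 10.74 at 6 h, and 9.99 and 10.29 at 24 h. In transgenic cells it read 9.70 and 9.64, then 10.68 and 10.75, then 10.00 and 10.02. It rose by 1.0 ± 0.11 and 1.05 ± 0.11 at 6 h (limma adjusted p = 0.00015 and 0.00012, with n = 2 arrays in each group) and fell from 6 h to 24 h by 0.59 and 0.71 (adjusted p = 0.0078 and 0.0031). The values above 0 h at 24 h, 0.41 in WT (adjusted p = 0.018) and 0.34 in transgenic cells (adjusted p = 0.046), rested on single arrays: the WT call was lost without the unmarked 0 h array (0.34, adjusted p = 0.11) or the marked 24 h array (0.26, adjusted p = 0.12), and the transgenic call on leaving out any 1 of 10 arrays (0.31 to 0.37). Eif6 rose by 0.64 and 0.77 at 6 h.

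Eif5 was the least moved of the 3. It read 12.50 and 12.55 at 0 h in WT cells, 12.77 and 12.74 at 6 h, and 12.42 and 12.38 at 24 h, and in transgenic cells 12.60 and 12.63, 12.70 and 12.79, and 12.38 and 12.37. The 24 h arrays were the lowest of each genotype. It was called higher at 6 h in WT (0.23 ± 0.07, limma adjusted p = 0.043) and lower at 24 h in transgenic cells (-0.24 ± 0.07, adjusted p = 0.039, n = 2 arrays per group). Each of these 2 calls was lost on leaving out any 1 of 10 arrays (0.20 to 0.25 and -0.25 to -0.23), and the transgenic one also under median centring (-0.21, adjusted p = 0.13).

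eIF5A, which carries the modified lysine hypusine and helps ribosomes through difficult stretches, rose on both probe sets. Probe set 10523058 read 12.84 and 12.76 at 0 h in WT cells, 14.23 and 14.00 at 6 h, and 13.83 and 13.97 at 24 h. In transgenic cells it read 12.83 and 12.69, then 14.17 and 14.08, then 13.91 and 13.81. It rose by 1.31 ± 0.10 and 1.36 ± 0.10 at 6 h (limma adjusted p = 3.8e-05 and 3.6e-05, with n = 2 arrays in each group) and by 1.10 in each genotype at 24 h. Probe set 10387733 rose by 0.79 and 0.87 at 6 h and by 0.61 in each at 24 h. The paralog Eif5a2 rose by 0.42 and 0.52 at 6 h and was not called at 24 h (0.01 and 0.15).

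The number of a probe set was set against those of its neighbours on the array. For 44 of the 54 probe sets, the 20 probe sets with the nearest numbers belonged mostly to genes of the same chromosome as the member. Of the other 10, Eif4e 10599855 lay among probe sets of which 19 of 20 belong to X, whereas Eif4e is on chromosome 3. Eif5a 10523058 lay among probe sets of chromosome 5 (20 of 20), whereas Eif5a is on 11, and Eif2s2 10578683 among those of chromosome 8 (20 of 20), whereas Eif2s2 is on 2. Of the 3 Eif4a1 probe sets, 10346780 lay among those of chromosome 1 (20 of 20) and 10466402 among those of chromosome 19 (19 of 20), whereas Eif4a1 is on 11. The remaining 5 were both of Eif4enif1 and 1 each of Eif3m, Eif4e1b and Eif2s3y. The majority was smaller for Eif4enif1 10373709 (14 of 20 on chromosome 10) and Eif2s3y (13 of 20 on X) than for the others of the 5 (18 or 19 of 20). In each of Eif4e, Eif5a, Eif2s2 and Eif4a1 another probe set, among neighbours of the gene's own chromosome, also rose at 6 h in WT cells: Eif4e 10496485 by 0.69, Eif5a 10387733 by 0.79, Eif2s2 10488806 by 1.31 and Eif4a1 10387545 by 0.75. The other Eif4e probe set among neighbours of chromosome 3, 10496490, was not called at 6 h. At 24 h neither Eif4e probe set among these neighbours was called above 0 h. There only 10599855, among those of X, was called, by 1.10 in WT and 0.76 in transgenic cells. The Eif2s2 10488806 call was lost without the unmarked 0 h array (1.12), the marked 6 h array (0.90) or the 3 marked WT arrays (1.09). Whether the probe sets among other chromosomes read transcripts of copies elsewhere was not tested.

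None of the 54 differed between the genotypes past the threshold. The comparison asks whether PP2Ac changes the level of these factors before or after stimulation. At 0 h, 6 h and 24 h 0 of 54 were called, with the smallest limma adjusted p at 1 in each (n = 2 arrays per group), and averaged over the times 0 of 54 with the smallest at 0.77. At an unadjusted p under 0.05 there were 2, 0, 0 and 1, where 3.56%, 2.61%, 4.26% and 6.34% of all probe sets passed. At the adjusted threshold, 0.00854% of the 23410 probe sets were called at each time and 0.0256% in the average. The differences in the responses at 6 h and at 24 h were also called for 0 of 54, as for 0% of all probe sets. The averaged differences ran from -0.15 to 0.11, and for 53 of the 54 the 95% interval lay within 0.5 on the log2 scale on either side of 0. The exception was Eif4ebp1, with an interval from -1.03 to 0.82 in this fit, which does not hold the difference between marks. Within pairs of the same time and mark, transgenic minus WT was -0.08 and 0.16 at 0 h, 0.03 and -0.06 at 6 h, and -0.22 and -0.45 at 24 h. These intervals bound the differences and do not show that the genotypes were alike.

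The 3 members with the smallest unadjusted p in the average were all lower in transgenic cells. Eif3i, whose readings were 11.36 and 11.35 at 0 h, 12.14 and 11.87 at 6 h and 12.03 and 12.18 at 24 h in WT, read 11.12 and 11.26, 11.94 and 11.82, and 11.92 and 11.95 in transgenic cells, a difference of -0.15 ± 0.06 (95% interval -0.29 to -0.01, limma adjusted p = 0.77, n = 6 arrays per genotype). The transgenic array was the lower in all 6 pairs of the same time and mark. Eif2b3 differed by -0.12 ± 0.07 and Eif2b5 by -0.10 ± 0.05 (adjusted p = 0.81 each). At 24 h, 45 of the 54 read lower and 9 higher in transgenic cells, with a median of -0.07. Over all probe sets 47.1% read higher there, and the median was -0.01. Probe sets of 1 gene are not independent. The median over the 54 was 0.00 in the unmarked arrays and -0.15 in those marked Rep, and -0.01 without the WT arrays marked Rep.

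**Figure D5:**
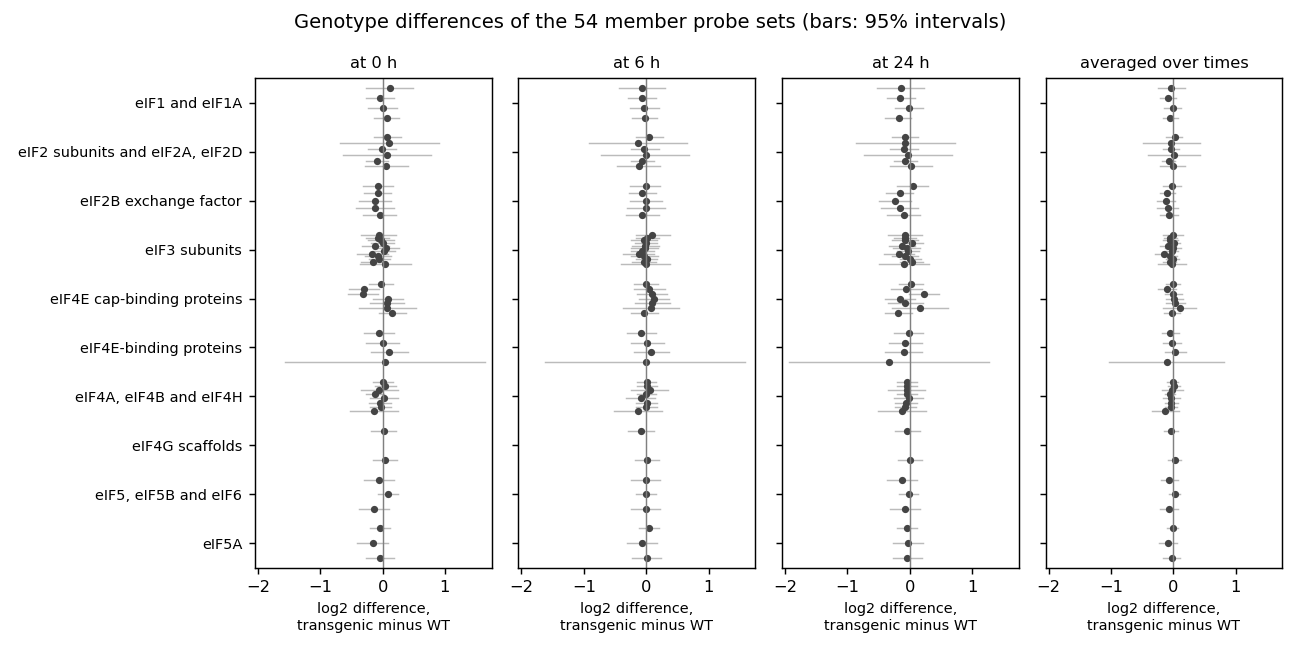
Transgenic minus WT log2 differences of the 54 probe sets by class, at 0, 6 and 24 h and averaged over the times; points are differences and bars 95% intervals. The points lie near 0 in every class, and the wide bar in each panel is Eif4ebp1.

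Other genes of the pathway came from lists with 1 probe set per gene. Over all probe sets, 12.6% rose and 13.9% fell at 6 h in WT cells, and 12.5% and 12.9% in transgenic cells. Of the 9 elongation factors, 5 rose at 6 h in each genotype, and 1 fell in WT and 0 in transgenic cells. The WT fall was lost in every fit with 1 array fewer, and in some of those fits fewer rises were called. The difference between genotypes in the 6 h response was called for 0 of the 9. Eef1e1, a component of the tRNA synthetase complex named as an elongation factor, rose by 1.71 ± 0.11 and 1.70 ± 0.11 at 6 h (limma adjusted p = 2.0e-05 and 2.1e-05, with n = 2 arrays in each group). Tsfm, a mitochondrial elongation factor, rose by 0.77 and 1.04. Of the 7 release and recycling factors, 4 rose in WT and 3 in transgenic cells, among them Abce1, which splits ribosomes (1.11 and 0.96), Etf1, which reads stop codons (0.85 and 0.77), and its partner Gspt1 (0.80 and 0.81).

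The lists of regulators held genes that rose and genes that fell, and were not tested against the initiation factors. Nor were they tested against all probe sets, of which 12.6% rose and 13.9% fell at 6 h in WT cells, and 12.5% and 12.9% in transgenic cells. At 24 h the shares were 12.9% and 13.8% in WT and 12% and 11.8% in transgenic cells. Several of the counts below changed when 1 array was left out. Of the 8 genes of eIF2α kinases and phosphatase subunits, 1 rose and 1 fell at 6 h in WT cells, 2 rose and 1 fell in transgenic cells, and at 24 h 0 rose and 3 fell in each. Eif2ak3, the kinase of the endoplasmic reticulum, read 10.89 and 11.04 at 0 h in WT cells, 9.09 and 9.44 at 6 h, and 9.66 and 9.57 at 24 h, with -1.70 ± 0.12 at 6 h in WT and -1.75 ± 0.12 in transgenic cells (limma adjusted p = 2.8e-05 and 2.7e-05, with n = 2 arrays in each group). Ppp1r15a, which guides a phosphatase to eIF2α, was lower at 24 h by -0.98 ± 0.22 in WT and -1.21 ± 0.22 in transgenic cells; the WT call was lost without the unmarked 0 h array (-0.96, adjusted p = 0.052) or the unmarked 24 h array (-0.71, adjusted p = 0.071). Of 15 genes of mTOR, S6 kinase and MNK signalling, 3 rose and 2 fell at 6 h in WT cells, and 4 rose and 3 fell in transgenic cells. Larp1, which binds mRNAs of the translation machinery under mTOR, rose by 0.99 and 0.95 at 6 h. At 24 h 1 of the 15 rose and 4 fell in WT cells, and 1 rose and 3 fell in transgenic cells. Rptor was lower at 24 h in both genotypes (-0.85 and -0.90), as was Tsc1 (-0.61 and -0.77). Rps6ka3 was called lower there in WT cells only (-0.27). Some of these calls were lost with 1 array fewer. Of 18 poly(A)-binding and accessory proteins, 9 rose and 4 fell at 6 h in WT cells and 7 rose and 4 fell in transgenic cells. Ncbp2 of the nuclear cap complex (0.74 and 0.77) and Bzw1 (0.56 and 0.57) were among the risers at 6 h. Paip2, an inhibitor of poly(A)-binding protein (-0.54 and -0.52), was among those that fell.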

How the data were processed

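The 12 one-colour arrays were read from the deposited log2 values, 1 per probe set and array. The labels name no method by which the authors summarised or normalised these log2 values. Symbols came from the platform annotation, and 21789 of 28853 probe sets had 1 symbol. Levels of different probe sets were not compared, and each probe set of a gene was kept.

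Values were quantile normalised between arrays and fitted with limma 3.58.1 (R 4.3.3) over all 12 arrays, fitting 6 group means. Variances were moderated with eBayes (residual degrees of freedom 6, prior 3.05). Adjusted p-values are Benjamini-Hochberg over the 23410 probe sets with a symbol, within each of 12 comparisons, at a threshold of 0.05. The number of arrays limits the precision. The members and lists were chosen with earlier results of these data known. In each class the members with the largest rise and fall at 24 h averaged over genotypes were named, with the 3 smallest p between genotypes, Eif2s3x and Eif2s3y, and any member whose 6 h and 24 h responses both passed with opposite signs, of which there were 0. Other members were given by class, some with their values, so that each is accounted for. Genes that are no members were Ppp2ca, the sex-linked list and up to 4 genes of each pathway list by the smallest p at 24 h against 0 h averaged over genotypes. Eif4e3, Eif4ebp1, the second probe sets of Eif2s2 and Eif5a, and the comparison between marks were added after the values were seen.

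Arrays sharing the mark deviated together: all 15 correlations of their deviations between groups were positive, 0.138 to 0.591. The source of these shared deviations is not given by the labels, and whether the mark pairs samples is not known. The main fit holds no term for the mark, and a fit with it as a block was run as an alternative. On data simulated for the comparison of 24 h with 0 h in WT, with 23410 probe sets, the procedure recovered 42% of changes of 0.5, 82% of 1, 96% of 2 and 98% of 3 (log2). In all, 11 unchanged probe sets were called. The simulation changed 50 probe sets at each size and drew noise without the deviations shared by mark. In the real comparison 12.9% of probe sets rose and 13.8% fell, so recovery and false calls there may differ. Other alternatives were median centring, the deposited values without quantile normalisation, dropping the dimmest 40% of probe sets, testing all rows, trended and robust moderation, array weights, the compared groups alone, and leaving out each array or the 3 WT arrays marked Rep. Tables and plots used matplotlib 3.10.9, numpy 2.4.6 and pandas 2.3.3 under Python 3.11.15.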

Additional observations from a re-analysis of the deposited data

Results flagged for a closer look

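The response of Eif4ebp1 differed between the arrays marked Rep and the unmarked ones in a comparison added after its values had been seen. At 6 h the marked response was larger by 1.56 ± 0.18 on the log2 scale (limma adjusted p = 0.036) and at 24 h by 1.54 ± 0.18 (limma adjusted p = 0.019). Each time and mark had 1 array of each genotype, and the marked response was the larger in both genotypes. Leaving out 1 array at a time lost the 6 h call in 10 of 12 fits and the 24 h call in 5 of 12.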

How the results depend on the processing

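The counts of members below are of 54, from limma at an adjusted p under 0.05. With the mark Rep as a replicate block, the count lower at 24 h against 0 h in WT went from 0 to 1, and that higher at 24 h against 6 h in transgenic cells from 1 to 3; no call of a named gene was lost with the block. The values as deposited also gave 1 lower at 24 h against 0 h in WT. For 24 h against 6 h in WT, 3 were higher, against 0 with the compared groups alone and 1 without the 3 WT arrays marked Rep. For the 8 lower there, median centring gave 4, array weights 5, the compared groups alone 0 and leaving out the WT arrays marked Rep 3. For 6 h against 0 h in WT, leaving out those arrays gave 1 lower in place of 3, and for 24 h against 0 h 18 higher in place of 29. For 24 h against 0 h in transgenic cells, 1 was lower, against 0 as deposited, with median centring, with the compared groups alone and with the 3 marked WT arrays left out, and 2 without the dimmest probe sets, with trended and robust moderation and with array weights. For 24 h against 6 h in transgenic cells, 2 were higher without the dimmest probe sets in place of 1, and 7 lower with the compared groups alone in place of 12.

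Leaving out 1 array at a time gave 1 to 3 higher and 2 to 8 lower for 24 h against 6 h in WT, 1 to 3 lower for 6 h against 0 h in transgenic cells, 18 to 28 higher and 0 to 1 lower for 24 h against 0 h there, and 1 to 2 higher and 4 to 11 lower for 24 h against 6 h there. The comparison between the marks gave 0 to 1 at each time. The uncalled Eif4ebp1 difference at 24 h in transgenic cells turned from 0.59 to -0.10 without the marked 24 h array (adjusted p = 0.96) and was 1.28 without the unmarked one. Of 3207 values of 153 results of named genes under all alternatives, 2944 kept direction and side of the threshold, 262 kept direction only and 1 turned. The medians over members stayed within 0.1 of their main value in 287 of 288 cases. That limit is the median residual standard deviation of a single member probe set, and not the spread of a median. The causes were not tested. With 2 arrays per group, the median 95% interval of a genotype difference at 1 time spanned 0.23 to each side.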

Other observations

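Among the 10 left-out probe sets with several symbols, differences at 6 h in WT ran from -0.38 to 1.60, with 8 called higher and 0 lower (limma adjusted p under 0.05). At 24 h they ran from -0.63 to 1.24, with 8 higher and 2 lower. Over all probe sets, 12.6% rose and 13.9% fell at 6 h in WT, and 12.9% and 13.8% at 24 h. Several of the 10 carry the same symbols and are not separate genes. Between the genotypes 0 of the 10 were called at any time.

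Of the 54 members, 5 probe sets had a gap of over 0.5 on the log2 scale between the paired arrays of at least 1 group: Eif4ebp1, both of Eif2s2, Eif4e3 and Eif4a3l1. The median over members of the largest gap was 0.22. The Eif4e3 response at 24 h against 0 h was -0.22 and 0.04 (WT and transgenic) in the unmarked arrays and 0.50 and 0.43 in those marked Rep.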
